A study of Mus musculus with 6 samples.

Results

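The genes described here encode receptors and ligands of the neurotrophin and GDNF (glial cell line-derived neurotrophic factor) families. They were read in cells made from mouse embryonic stem cells by a protocol meant to give cortical cells. The genes were taken by symbol: Ntrk2, Ntrk3, Ngfr, Bdnf, Ntf3, Gfra1, Gfra2 and Ret. Of these 8 genes, 7 were among the 19938 genes with a probe set of 1 symbol, each with 1 such probe set, and Ntf3 was not analysed here. The cells were sorted on day 11, day 12 or day 13 of floating culture (SFEBq) into CTIP2:GFP+ cells and CTIP2:GFP- cells, and RNA taken just after sorting was hybridised to 1 array per fraction and day, 6 in all. Both fractions came from the same CTIP2:GFP knock-in stem cell line on a 129SVEV background, a single line that keeps its neomycin cassette, and both had been exposed to the TGF-beta receptor inhibitor SB-431542 and the WNT inhibitor WNT-C59 early in culture. The medium with BDNF and GDNF that the study gave to sorted cells came after this step. The question put to the arrays was which surface molecules CTIP2:GFP+ (GFP+) cells carry at a higher level than CTIP2:GFP- (GFP-) cells.

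Neurotrophins are secreted growth factors that act on neurons through Trk receptor tyrosine kinases and through p75, a receptor of the TNF receptor family. BDNF acts on TrkB, the product of Ntrk2, and neurotrophin-3 acts mainly on TrkC, the product of Ntrk3; p75, the product of Ngfr, binds all of them and their uncleaved precursors. GDNF and its relatives bind a GPI-anchored co-receptor of the GFR-alpha family, which then engages the receptor tyrosine kinase RET, or NCAM in cells that lack RET. In the developing forebrain TrkB and TrkC are carried by postmitotic neurons, though not by these alone. A truncated TrkB without the kinase is the main form in glia, and 1 probe set per gene does not tell the forms apart.

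The promoters of Ntrk2 and Gfra1 are shown because the results below turn on these genes. RefSeq windows were listed for 4 of the 7 measured genes, and each sequence is the 250 bases before 1 listed start, 5′ to 3′ on the gene's strand, with CAGCTG, an E-box that proneural factors bind, in capitals. The Ntrk2 window lies at chr13:58806319-58806568 (+ strand, GRCm38.p6) and the Gfra1 window at chr19:58455399-58455648 (- strand, GRCm38.p6).
Ntrk2: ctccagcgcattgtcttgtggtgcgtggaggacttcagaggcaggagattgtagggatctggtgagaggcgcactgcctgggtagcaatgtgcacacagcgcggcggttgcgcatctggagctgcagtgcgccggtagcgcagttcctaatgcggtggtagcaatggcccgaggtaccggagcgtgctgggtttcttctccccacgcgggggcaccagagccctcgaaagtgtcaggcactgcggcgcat
Gfra1: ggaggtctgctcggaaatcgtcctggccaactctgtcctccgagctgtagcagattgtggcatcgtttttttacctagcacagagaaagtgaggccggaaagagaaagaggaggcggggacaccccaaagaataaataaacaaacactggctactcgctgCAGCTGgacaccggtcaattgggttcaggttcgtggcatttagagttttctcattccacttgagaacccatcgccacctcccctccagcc
Searched on both strands, for which these palindromes read alike, neither window held TAATTA, the core that many homeodomain proteins bind, or TGACGTCA, the CRE. CAGCTG occurred once in the Gfra1 window and 0 times in the Ntrk2 window. Among the windows not shown, it also occurred once in that of Ngfr and in 1 of the 7 of Bdnf. Over all 32851 windows of this length, 4271 (13%) held CAGCTG, 1590 (4.84%) TAATTA and 508 (1.55%) TGACGTCA. A match is a description of the sequence and not of a bound site.

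The signals are log2 values from RMA, and a difference is GFP+ minus GFP- on that scale, averaged over the 3 days. The fractions were compared in a limma model that includes the day, and adjusted p is Benjamini-Hochberg over all 19938 genes. Each array of a fraction is from another day, and the labels do not say whether the days were separate cultures. With the day in the model, the p-value of a difference rests in part on how that difference varied from day to day. The other part is a variance that limma draws from all genes. Such a p-value does not measure a spread between known replicate cultures. Bcl11b, the gene of CTIP2, lay at 7.91 to 8.76 on the GFP+ arrays and at 6.27 to 6.88 on the GFP- arrays. The GFP- array of day 13 was unlike the others: its probe sets had an SD of 1.11 against 1.29 to 1.48 on the other 5 arrays, and it correlated with them at 0.863 to 0.927. With 6 arrays, precision is limited.

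Ntrk2 was the only one of the 7 genes whose arrays did not overlap between the fractions. Of all genes, 9.05% were higher and 7.85% lower without overlap. In GFP+ cells of day 11, day 12 and day 13 it gave 7.45, 7.40 and 7.47, against 5.90, 6.82 and 6.60 in GFP- cells. The GFP+ arrays lay close together and the GFP- arrays spread widely, so that the daily differences of 1.55, 0.58 and 0.87 were largest where the GFP- signal was lowest. On average the level was 7.44 ± 0.03 in GFP+ cells and 6.44 ± 0.48 in GFP- cells (SD, n = 3 each), which is 2.003-fold. The log2 difference of 1.002 (standard error 0.21, 95% interval 0.47 to 1.53) missed the threshold, with an adjusted p of 0.098 from limma. The gene passed without day 12, where the difference was 1.21 (adjusted p = 0.015), with a trended and robust eBayes (adjusted p = 0.025) and with filters on dim probe sets (adjusted p = 0.047 and 0.015). Those settings called more genes in general as well. In that order 930, 549, 426 and 703 genes were higher past the test, against 159 in the main fit. The filters kept 15793 and 10788 of the 19938 genes. Over all alternatives the adjusted p of Ntrk2 ran from 0.015 to 0.46. Without day 11 the difference was 0.73, and after a further quantile normalization it was 0.83, both under 2-fold.

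Ntrk3 was higher in GFP+ cells on each day, by 0.05 on day 11, 0.15 on day 12 and 0.87 on day 13. Its signal was 7.05, 7.53 and 7.26 in GFP+ cells, against 6.998, 7.38 and 6.39 in GFP- cells. The GFP- array of day 13 was the low one, and the other 5 arrays overlapped. The mean levels were 7.28 ± 0.24 in GFP+ cells and 6.92 ± 0.50 in GFP- cells (SD, n = 3 each), with a difference of 0.36 (standard error 0.20, 95% interval -0.14 to 0.85, adjusted p = 0.49 from limma). Without day 13 the difference was 0.10.

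Ngfr, the gene of p75, had signals of 6.81, 6.88 and 6.75 in GFP+ cells, against 7.09, 6.63 and 6.81 in GFP- cells. All 3 GFP+ arrays lay inside the range of the GFP- arrays, and the sign of the difference was not the same on each day. The mean difference was -0.03 (standard error 0.16, 95% interval -0.43 to 0.36, adjusted p = 0.94 from limma), and after median centring of the arrays it was 0.023. Because p75 is also a marker of neural crest, 7 genes of neural crest and peripheral neurons were read beside it. Of these, 0 were higher and 0 lower past the test, and their mean signal was 5.32 to 5.41 on the GFP+ arrays and 5.38 to 5.94 on the GFP- arrays.

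Bdnf, the ligand of TrkB, had signals of 5.29, 4.96 and 5.13 in GFP+ cells, against 5.15, 4.92 and 5.77 in GFP- cells. On 5 of the 6 arrays the value lay below the median of the array's probe sets (5.32 to 5.52), and the day 13 GFP- array was the exception. The mean levels were 5.12 ± 0.16 in GFP+ cells and 5.28 ± 0.44 in GFP- cells (SD, n = 3 each). The difference was -0.16 (standard error 0.20, 95% interval -0.64 to 0.33, adjusted p = 0.74 from limma) and 0.09 without day 13, so that its sign rested on that day. Ntf5, which encodes neurotrophin-4, another ligand of TrkB, had a difference of -0.13 (adjusted p = 0.74).

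**Figure D1:**
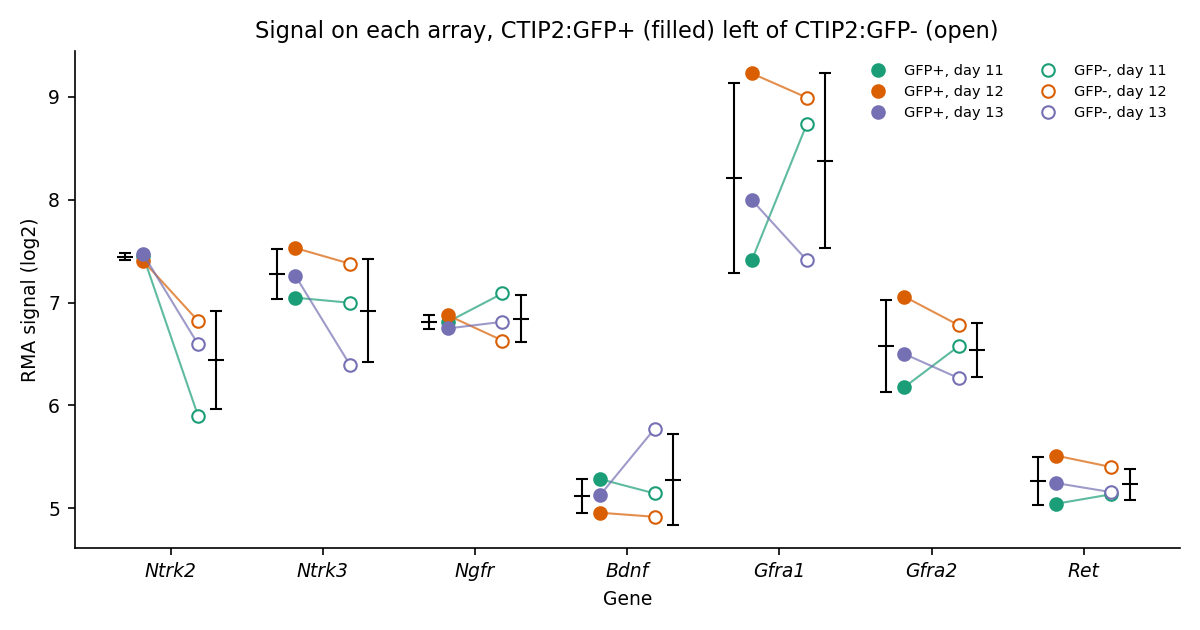
RMA signal (y axis, log2) of the 7 genes (x axis) on every array. CTIP2:GFP+ arrays are filled and CTIP2:GFP- arrays open, each line connects a same-day pair, and bars in black show means with SD (n = 3); for Ntrk2 the 3 GFP+ arrays (7.40 to 7.47) lie above all GFP- arrays (5.90 to 6.82), and for the other 6 genes the fractions overlap. Over all genes, 9.05% were higher in GFP+ cells without overlap.

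Gfra1, the co-receptor that binds GDNF, differed more between days than between fractions. Its signal was 7.42, 9.23 and 7.99 in GFP+ cells on day 11, day 12 and day 13, against 8.73, 8.99 and 7.41 in GFP- cells. Day 12 was the highest day in both fractions, while the lowest was day 11 in GFP+ cells and day 13 in GFP- cells. On day 11 the gene was lower in GFP+ cells (-1.32), and on day 12 (0.23) and day 13 (0.58) its level in GFP+ cells was above that in GFP- cells. The mean levels were 8.21 ± 0.92 in GFP+ cells and 8.38 ± 0.85 in GFP- cells (SD, n = 3 each), a difference of -0.17 (standard error 0.37, 95% interval -1.07 to 0.74, adjusted p = 0.85 from limma). Without day 11 the difference was 0.41, and without day 13 it was -0.54. Tested as a linear change with day, the difference moved by 0.95 per day, which lay under 0.05 before adjustment, as for 5.11% of all genes, and not after it (adjusted p = 0.28 from limma). In this test limma gave every gene the same standard error. The test therefore ranks genes by the size of their change and takes no account of a gene's own spread.

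Gfra2, the co-receptor that prefers neurturin, took the same order of days at a smaller scale. Its signal was 6.18, 7.06 and 6.50 in GFP+ cells, against 6.58, 6.78 and 6.26 in GFP- cells. The daily differences were -0.40, 0.28 and 0.24, and their mean was 0.04 (standard error 0.19, 95% interval -0.42 to 0.50, adjusted p = 0.94 from limma). After a further quantile normalization the mean was -0.06.

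Ret, the kinase that both co-receptors engage, had signals of 5.05, 5.51 and 5.25 in GFP+ cells, against 5.14, 5.40 and 5.16 in GFP- cells. These were at percentiles 29.2 to 50.8 of the genes on their arrays, below the median gene on all but the day 12 GFP+ array, and day 12 was the highest day in both fractions. The mean difference was 0.04 (standard error 0.14, 95% interval -0.30 to 0.38, adjusted p = 0.92 from limma). A probe set this dim may understate a change.

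Over the 6 arrays the signals of Gfra1, Gfra2 and Ret rose and fell in a like order, with a Pearson correlation of 0.95 for Gfra1 with Gfra2, 0.93 for Gfra2 with Ret and 0.80 for Gfra1 with Ret. Without the day 13 GFP- array these were 0.94, 0.94 and 0.81 over 5 arrays. Ntrk3 and Bdnf ran opposite to each other, with a correlation of -0.96, and of -0.84 without the day 13 GFP- array. That array held the lowest Ntrk3 and the highest Bdnf signal. These values are descriptions, since the arrays of the fractions share days. Whether the days were separate cultures and whether the arrays were normalized together was not given.

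The 3 genes most like Gfra1 over the 6 arrays were Ebf2 (r = 0.997), Vav3 (0.984) and Frmd4b (0.984), among 5444 other genes with a range of at least 1 on the log2 scale. Ebf2, a transcription factor of several kinds of early neurons, Cajal-Retzius cells among them, had signals of 6.29, 8.74 and 6.87 in GFP+ cells, against 8.10, 8.39 and 6.12 in GFP- cells. Its difference changed with day by 1.28 per day, with an adjusted p = 0.017 from limma, and was 1 of 7 genes (0.0351%) past that test. Passing it rests on the size of the change alone, since every gene had the same standard error there. Among the 7 genes listed for Cajal-Retzius cells, Ebf3 also passed (adjusted p = 0.048). Of that list 0 of 7 were higher and 0 lower between the fractions past the test, with 1 over 2-fold in each direction. Its mean over the other 6 genes, without Ebf2, was 6.43, 7.43 and 6.36 in GFP+ cells, against 7.23, 7.22 and 6.14 in GFP- cells. Day 11 and day 13 in GFP+ cells, and day 11 and day 12 in GFP- cells, lay too close together to be ordered. The list did not move one way: Lhx1 (-0.92), Lhx5 (-0.62) and Ndnf (-1.14, without overlap) had lower means in GFP+ cells, and Reln (1.33, without overlap), Ebf3 (0.46) and Trp73 (0.14) had higher ones. Of the defining markers Reln was at 7.03, 8.44 and 6.83 in GFP+ cells, against 6.07, 6.01 and 6.23 in GFP- cells, and Trp73 lay at 5.18 to 5.40 in GFP+ cells, against 4.90 to 5.41 in GFP- cells. The part of such cells in the level of Gfra1 was not tested, and in sorted bulk RNA fewer cells of a type and less RNA per cell cannot be told apart.

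**Figure D2:**
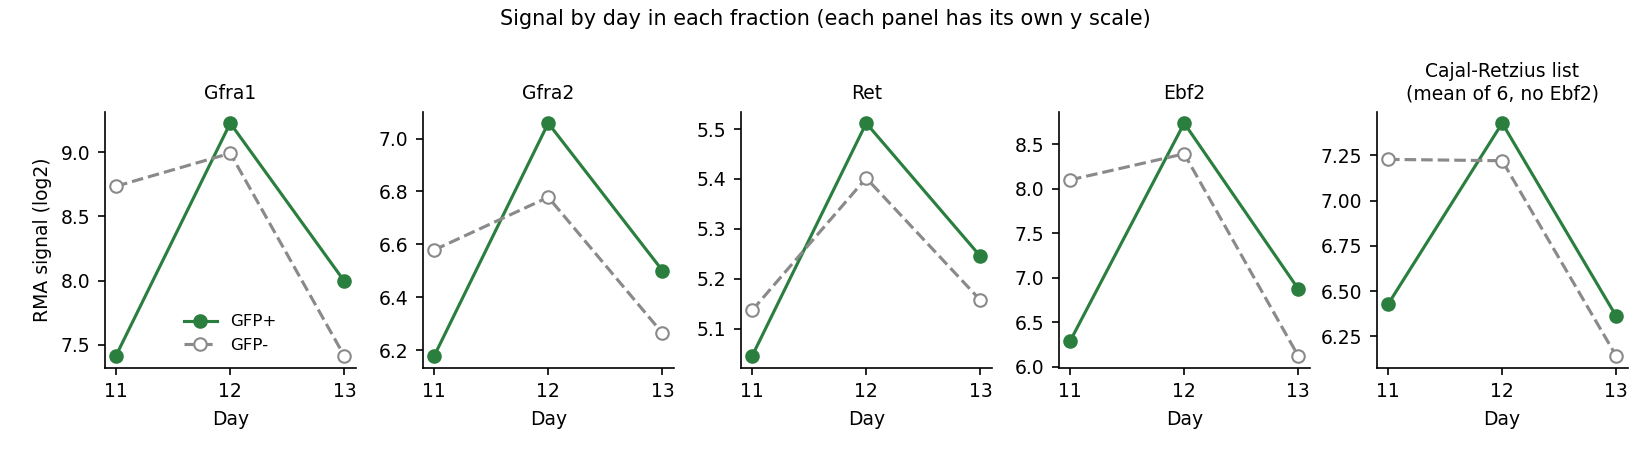
RMA signal (y axis, log2, a scale of its own in each panel) by day (x axis) for Gfra1, Gfra2, Ret, Ebf2 and the mean of 6 genes listed for Cajal-Retzius cells, without Ebf2. Filled points with solid lines are CTIP2:GFP+ and open points with dashed lines CTIP2:GFP- arrays, 1 array each; every panel has its highest value on day 12 in GFP+ cells, and in Gfra1 GFP+ lies 1.32 below GFP- on day 11.

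By limma, 0 of the 7 genes passed as higher and 0 as lower after adjustment, where 0.797% of all genes were higher and 0.567% were lower. At an unadjusted p under 0.05 there was 1 of 7, Ntrk2, where 15.5% of all genes lay. By the methods' test likewise 1 gene, Ntrk2, was under that level before adjustment, with 8.81% of all genes, and 0 after it. Over 2-fold on average were 1 of 7 higher and 0 lower, with 1.97% and 1.02% of all genes. The arrays of the fractions did not overlap for 1 of 7, which was higher, where 9.05% of all genes were higher without overlap and 7.85% were lower. The median difference of the 7 genes was 0.04, and that of all genes was -0.05. Only Ntrk2 and Ntrk3 kept 1 direction on all 3 days.

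By day, Ntrk2 was over 2-fold higher and Gfra1 over 2-fold lower in GFP+ cells on day 11, when 1.85% of all genes were past 2-fold upward and 1.30% downward. On day 12 none of the 7 was over 2-fold in either direction, with 1.48% and 2.43% of all genes, and on day 13 none was, with 9.18% and 2.29%. These daily values have 1 array per fraction and no test. A change of level between days in both fractions alike, tested with limma's F test, was called for 0 of the 7 genes, and for 0% of all genes. At an unadjusted p under 0.05 it held for 1570 genes, or 7.87%, and for 0 of the 7, with Gfra1 nearest to that level.

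**Figure D3:**
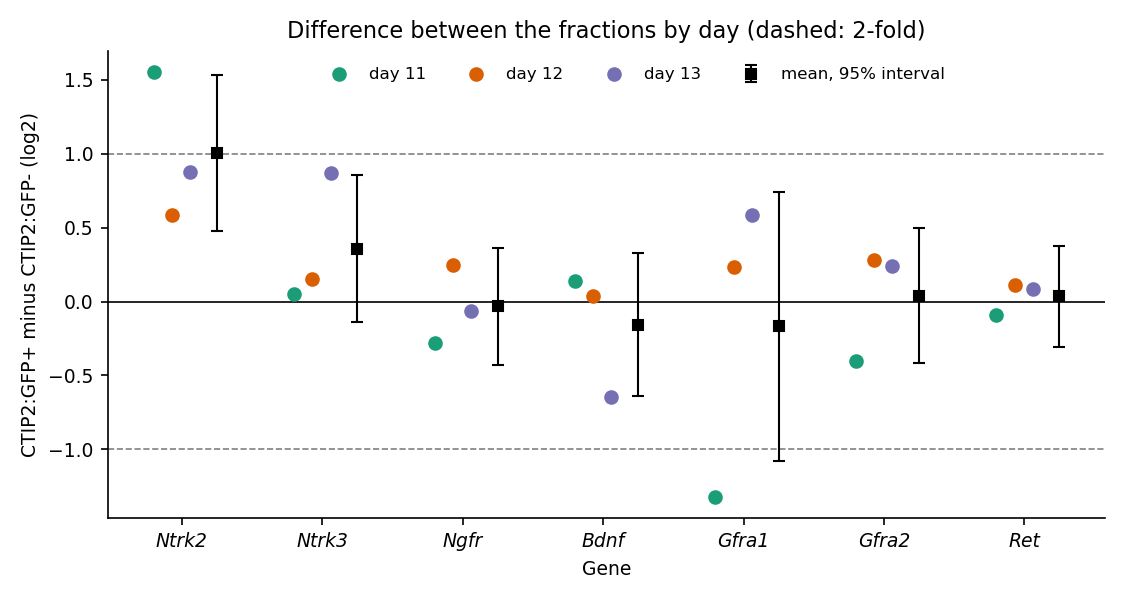
Difference of CTIP2:GFP+ minus CTIP2:GFP- (y axis, log2) for the 7 genes (x axis). Circles are the 3 days, black squares with bars the mean and its 95% interval from limma, and dashed lines mark 2-fold; Ntrk2 has the only interval that lies above 0 (0.47 to 1.53), and the days of Gfra1 run from -1.32 to 0.58.

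The genes nearest to Ntrk2 over the 6 arrays were Sfxn3 (r = 0.992), Timp2 (0.988) and Ttc9 (0.979), with differences of 0.85, 0.71 and 0.88. Sfxn3, a mitochondrial serine transporter, had a signal of 8.995, 8.94 and 9.01 in GFP+ cells, against 7.80, 8.42 and 8.17 in GFP- cells, so that its fractions also lay apart on every array. For Gfra2 the nearest were Mast4, Dab1 and Meis2 (0.964 to 0.980), and for Ret they were Nlgn1 (0.934), Aqp6 (0.920) and 4922502B01Rik (0.918). Those of Ntrk3 were Rassf2, Cul2 and Usp11 (0.996 to 0.9995) and those of Bdnf were Aqp2, Lingo3 and Nags (0.996 to 0.997). For Ngfr they were 1700064E03Rik (0.935), 4930431F12Rik (0.905) and Gm10785 (0.865).

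Markers of other kinds of cell differed between the fractions along with Ntrk2. Of 13 general neuronal genes, 3 were higher past the test and 10 did not overlap, and their mean signal was 9.14 to 9.41 on the GFP+ arrays and 7.45 to 8.52 on the GFP- arrays. Of 12 interneuron genes, 7 were higher, with a mean signal of 7.91 to 8.84 in GFP+ cells and 6.14 to 6.48 in GFP- cells. Of 11 radial glial genes, 6 were lower, at 7.17 to 7.73 in GFP+ cells and 8.56 to 9.10 in GFP- cells, and 1 of 6 astrocyte genes was lower. Of 9 deep-layer genes 1 was higher, Bcl11b, whose GFP reporter the cells were sorted on, so that its call was set by the sort. None of the others passed, and the median difference of the list was -0.04. Of 8 genes of dividing cells 0 passed and 7 were lower without overlap, with a mean signal of 6.10 to 6.88 in GFP+ cells and 7.20 to 7.88 in GFP- cells. For the oligodendrocyte lineage (6), mesenchyme and pericytes (7) and endothelium (6), 0 passed in either direction. Of these, Pdgfra, a marker of oligodendrocyte precursors, was 1.26 higher without overlap (adjusted p = 0.057 from limma), and 1 gene of the oligodendrocyte lineage, 2 of mesenchyme and 2 of endothelium were lower without overlap. The part of these cells in the difference of Ntrk2 was not tested.

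The rest of both pathways was read from lists by role, with 84 of 93 listed genes measured, of which 2 were higher and 0 were lower past the test, where 0.797% of all genes were higher and 0.567% lower. The median difference of the 13 general neuronal genes was 1.19. Ncam1, the neural cell adhesion molecule, which binds GDNF together with GFR-alpha 1, was at 10.94, 11.09 and 10.60 in GFP+ cells, against 10.04, 10.18 and 9.39 in GFP- cells. Sdc3, the heparan sulphate proteoglycan syndecan-3, which binds GDNF, was at 8.22, 8.21 and 7.94 in GFP+ cells, against 7.37, 7.18 and 6.87 in GFP- cells. In both genes the fractions lay apart on every array. The difference was 1.01 for Ncam1 (standard error 0.15, adjusted p = 0.045 from limma) and 0.98 for Sdc3 (standard error 0.14, adjusted p = 0.044). Both calls were lost without day 11 (differences 1.06 and 1.05), without day 13 (0.91 and 0.94), with no block for the day (also without the day 13 GFP- array), after median centring, after quantile normalization (0.91 and 0.74) and by the methods' test, and that of Sdc3 also with the trended and robust eBayes. Over the alternatives the adjusted p ran from 0.0093 to 0.47 for Ncam1 and from 0.011 to 0.32 for Sdc3.

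Among the other receptors, Sorcs3, Sort1 and Sorl1, of the sortilin family that takes part in the sorting of neurotrophins and their receptors, differed by 0.57, 0.49 and 0.47, without overlap of the arrays for Sorl1, and did not pass (adjusted p = 0.34, 0.44 and 0.20). Sorcs1 and Sorcs2 differed by 0.05 and -0.15. The further GDNF family co-receptors Gfra3 (-0.14) and Gfra4 (-0.18), and Gfral (-0.14), the co-receptor of GDF15, did not pass. The GDNF family ligands Gdnf (-0.11), Nrtn (-0.01), Artn (-0.08) and Pspn (0.09) did not pass, and their arrays overlapped.

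Of 24 adaptors that act below Trk receptors and RET, 0 passed, 6 lay higher and 1 lay lower in GFP+ cells without overlap, where 9.05% and 7.85% of all genes did. Kidins220, a membrane scaffold that Trk receptors phosphorylate, had the widest difference upward, 1.23 (standard error 0.19, adjusted p = 0.052), with 1.20, 0.84 and 1.66 on the 3 days. It passed in 7 of 12 alternatives, among them those without day 11 and without day 12. Grb10, an adaptor that binds receptor tyrosine kinases, had a difference of -1.38 (adjusted p = 0.099), with -2.16, -1.39 and -0.59 by day. It passed in 4 of the 12, among them the one without day 12. Of 20 targets of ERK signalling, which receptor tyrosine kinases of many families drive, 0 passed and the median difference was -0.28. The list moved both ways, with 1 gene higher and 2 lower in GFP+ cells without overlap. Spry1, a feedback inhibitor that in the mouse kidney restrains RET, was at -1.20 (adjusted p = 0.10) and passed in 5 of the 12, among them those without day 11 and without day 12. Over all genes, 381 were called higher and 171 lower without day 11, and 930 and 229 without day 12, against 159 and 113 in the main fit. Of 7 partners of p75 and 11 genes for the processing of pro-neurotrophins, 0 passed.

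**Figure D4:**
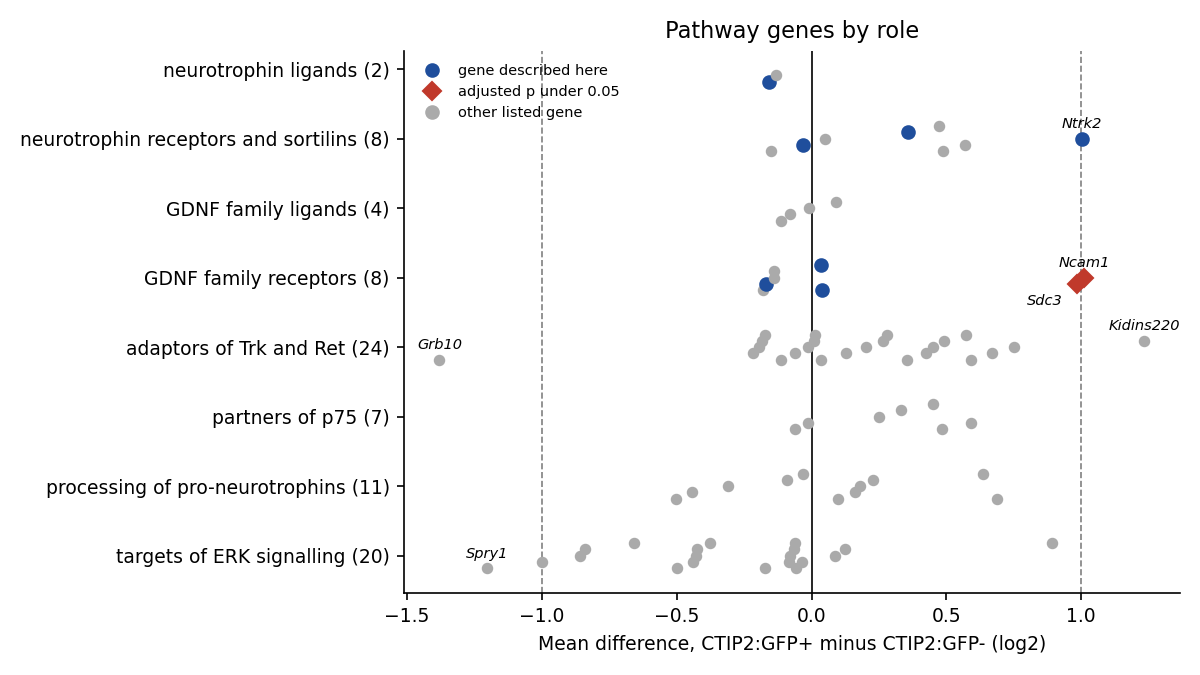
Mean difference of CTIP2:GFP+ minus CTIP2:GFP- (x axis, log2) for 84 genes in 8 lists by role (y axis, each labelled with its count of measured genes). Blue points are the genes described here, red diamonds genes with an adjusted p under 0.05 from limma (Ncam1 and Sdc3), grey points the other genes, and dashed lines mark 2-fold; vertical offsets within a list carry no value.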

How the data were processed

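The platform was the GeneChip Mouse Gene 1.0 ST array, with 1 array for each of 6 sorted samples. GeneSpring's RMA16 was used by the authors to obtain the deposited log2 signals. For joint normalization, filters and genome build, the details were not given in the sources used here. Probe sets were named from the platform annotation: of 28853, 21789 had 1 symbol, 1621 several and 5443 none, and Entrez IDs linked 21698 of the first kind to the RefSeq genes of GRCm38.p6, with 0 symbols changed. Each of the 19938 genes was represented by its single-symbol probe set with the highest mean, and no dim probe set was removed.

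A linear model of fraction plus day (2 residual degrees of freedom) was fitted with limma 3.58.1 (R 4.3.3) and eBayes, and p-values were adjusted by Benjamini-Hochberg across the 19938 genes (threshold 0.05). An F test of day and a linear change of the difference with day (1 residual degree of freedom) were also fitted. For the linear change, limma gave every gene the same standard error. The day in the labels pairs the fractions, and deviations of same-day arrays correlated at 0.112, 0.558 and 0.368 on day 11, day 12 and day 13. When the fit was tested on simulated data (5 runs, 19938 genes), it recovered 14.6% of log2 differences of 1 and 90.0% of 2, with 5.25% of calls false. The simulated noise was drawn from limma's own fitted variances, independent between arrays, with no day effect and no unlike array. The share of false calls on the real arrays can therefore differ. The processing was varied by dropping the day term, each day or the day 13 GFP- array, and by median centring or quantile normalization. It was also varied by averaging probe sets, by filtering dim ones at 2 levels, by eBayes with trend and robust settings, and by the methods' t-test. The paper does not name that t-test for its arrays. The genes and lists were chosen with earlier results of these data known. Named were the 7 measured genes, pathway genes past the test or over 2-fold on average, the other ligands and receptors, and the 3 genes most like each of the 7 by Pearson correlation. Single marker genes and Traf6 were named after their values were seen. Ntf3 was not analysed here. Promoter sequences are from RefSeq (GRCm38.p6).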

Additional observations from a re-analysis of the deposited data

Results flagged for a closer look

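In 5 of the 7 genes the daily difference of GFP+ minus GFP- cells did not keep 1 sign, with 1 array per fraction and day, so that the change of sign itself was not tested. On day 11, day 12 and day 13 it was -1.32, 0.23 and 0.58 for Gfra1, -0.40, 0.28 and 0.24 for Gfra2, -0.091, 0.11 and 0.088 for Ret, -0.28, 0.25 and -0.065 for Ngfr, and 0.14, 0.039 and -0.65 for Bdnf. A linear change with day was not called by limma for any of them (adjusted p = 0.28 for Gfra1 and 0.999 for the other 4).

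Traf6, an adaptor of p75 and other receptors, was the only gene of the pathway lists whose difference changed with day past the test, by 1.16 per day (adjusted p = 0.048 from limma). That test gave every gene the same standard error, so the call rests on the size of the change. The daily differences of Traf6 were -0.37, -0.59 and 1.95, which is no steady change. Its signal was 6.62, 6.81 and 7.07 in GFP+ cells, against 6.99, 7.39 and 5.12 in GFP- cells, so that the day 13 GFP- array held the lowest value, and the part of that array in the change was not tested.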

How the results depend on the processing

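Over all genes, limma called 159 higher and 113 lower. With no replicate block for the day it called 84 and 41, after median centring 0 and 0, after quantile normalization 52 and 99, with the filters at the 25th percentile 426 and 240 and at the median 703 and 337, with a trended and robust eBayes 549 and 510, and by the methods' test 0 and 0 (1756 before adjustment). With 1 day left out the counts ran from 0 to 930 and from 0 to 229, with 0 and 0 without day 13. Of the 7 genes, 0 were called higher, and 1 (Ntrk2) without day 12, with either filter and with the trended and robust eBayes, a range of 0 to 1 over the days left out. Those over 2-fold higher were 1, and 0 after quantile normalization, with 0 to 1 over the days left out. Of the pathway genes 2 were called higher. The count was 0 with no block for the day (also without the day 13 GFP- array), after median centring and by the methods' test, 1 (Kidins220) after quantile normalization, 5 with either filter, and 0 to 7 with 1 day left out. Pathway genes called lower were 0, with 0 to 3 for 1 day left out, 1 with the mean of probe sets, 3 and 4 with the filters and 4 with the trended and robust eBayes.

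The difference of Ntrk2 was 1.002 in the fits that called it without leaving out a day, and 0.73 to 1.21 with 1 day left out. It kept its sign in all 12 alternatives, as did that of Ntrk3, but not all of these could change a difference. Dropping only the day term, averaging probe sets, the filters, the eBayes settings and the methods' t-test left both genes at their main values. Of the differences that changed sign, none was called in either direction. With 1 day left out Ngfr ran from -0.17 to 0.091, Bdnf from -0.30 to 0.090, Gfra1 from -0.54 to 0.41, Gfra2 from -0.082 to 0.26 and Ret from -0.0019 to 0.10. When the block and the GFP- array of day 13 were both dropped, Bdnf was at 0.091, Gfra2 at -0.10 and Ret at -0.0019. Median centring gave 0.023 for Ngfr, and quantile normalization -0.061 for Gfra2. The cause was not tested. Bdnf and Ret were not among the genes kept by the filter at the median. With 3 arrays a fraction and 2 residual degrees of freedom, a log2 difference of 1 was seldom recovered in simulated data, and signals near the array medians, as of Bdnf and Ret, may understate a change.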
